A study of Mus musculus with 8 samples.

Results

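Growth factors released by connective-tissue cells of the colon, and receptor tyrosine kinases that read such signals, were followed across the cell types of the mouse distal colonic mucosa. The 10 genes were chosen by name from the 31053 genes of the deposited gene table: the ligands Fgf7, Fgf10, Hgf and Igf1, the receptors Met, Igf1r and Fgfr2, the platelet-derived growth factor receptors Pdgfra and Pdgfrb, and Kit. All 10 were found. Cells of 8 mice, each 8 weeks old, had been captured in droplets and their transcripts counted at the 3′ end. Of these, the 4 KO-labelled mice carried a floxed Spry2 gene and Cre driven by the Villin promoter (Vil1::Cre;Spry2-f/f), and the 4 WT-labelled mice were littermates with the same floxed gene and no Cre (Spry2-f/f). Villin-driven Cre acts in intestinal epithelial cells, so Spry2 in fibroblasts and immune cells is outside the direct reach of the deletion in either group. Sprouty2, the product of Spry2, is a feedback inhibitor of receptor tyrosine kinase signalling. Values by mouse are given for KO-labelled mice 2, 3, 6 and 7 and for WT-labelled mice 1, 4, 5 and 8, in that order.

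Fibroblast growth factors 7 and 10 bind the epithelial form of fibroblast growth factor receptor 2, hepatocyte growth factor binds MET, and insulin-like growth factor 1 binds the IGF1 receptor. In the gut these ligands are known as products of mesenchymal cells that act on the epithelium, while platelet-derived growth factors run the other way, from epithelium and endothelium to receptors on fibroblasts and mural cells. KIT, the receptor of stem cell factor, is known from mast cells, innate lymphoid cells, pacemaker cells of the gut muscle and the deep crypt secretory cells that neighbour colonic stem cells.

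Of the 53080 deposited cells, 51764 remained after 1316 cells that the authors had named doublets were left out. Total UMIs (unique molecular identifiers, tags that mark single transcript molecules) ranged from 17037906 to 37300028 per mouse. A level below is a CPM value: the UMIs of the gene per 1000000 UMIs of all cells of 1 type in 1 mouse, given where the mouse had at least 20 such cells. Of fibroblasts at most 0.382% per mouse held at least 50% mitochondrial UMIs. Mice 1 to 4 and mice 5 to 8, each with 2 KO-labelled and 2 WT-labelled mice, stood apart, although the labels give a single batch. Median UMIs per cell were 1505 to 1811 in mice 1 to 4 and 2146 to 3355 in mice 5 to 8, and the share of epithelial cells with at least 50% mitochondrial UMIs was 53.5% to 79.6% and 11.1% to 37.2%. Libraries shared 356 cell barcodes (719 cells). Spry2 transcripts were at 10.4, 13.3, 15.7 and 49.3 CPM in the epithelium of KO-labelled mice and at 11.2, 17.6, 27.7 and 37.6 CPM in that of WT-labelled mice. These ranges overlapped. Whether the counted 3′ ends lie in the deleted stretch is not given in the sources used here, so Spry2 does not check the labels. The cell types are the authors' clusters, made from the same transcripts, and levels in different types are therefore a description.

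The promoters of 4 of the genes are shown because the results below set these genes side by side. Of the 10 genes, Fgf7 and Fgf10 had the highest correlation of levels across cell types, with mouse 8 included. Pdgfra and Kit are near neighbours on chromosome 5 with separate patterns. Each line gives the 250 bases before the RefSeq start on the plus strand (GRCm38.p6). Capitals mark a GC box (GGGCGG) or a CCAAT box (CCAAT) on either strand. RefSeq starts can differ from the gene positions given below. The Fgf10 stretch lies inside the gene as placed there, and the Kit stretch runs past the gene start given there. Kit had another RefSeq start close by, which is not shown.
Fgf7, chr2:126034408-126034657: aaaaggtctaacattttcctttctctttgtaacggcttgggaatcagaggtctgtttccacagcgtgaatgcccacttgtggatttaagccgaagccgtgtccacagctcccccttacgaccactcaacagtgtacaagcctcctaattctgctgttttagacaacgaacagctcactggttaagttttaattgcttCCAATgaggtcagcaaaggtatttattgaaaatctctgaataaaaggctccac
Fgf10, chr13:118714449-118714698: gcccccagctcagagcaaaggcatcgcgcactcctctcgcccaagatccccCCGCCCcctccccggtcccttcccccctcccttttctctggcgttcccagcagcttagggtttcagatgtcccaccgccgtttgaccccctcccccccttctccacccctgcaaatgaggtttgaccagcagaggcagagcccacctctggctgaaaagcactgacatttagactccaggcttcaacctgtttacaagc
Pdgfra, chr5:75152001-75152250: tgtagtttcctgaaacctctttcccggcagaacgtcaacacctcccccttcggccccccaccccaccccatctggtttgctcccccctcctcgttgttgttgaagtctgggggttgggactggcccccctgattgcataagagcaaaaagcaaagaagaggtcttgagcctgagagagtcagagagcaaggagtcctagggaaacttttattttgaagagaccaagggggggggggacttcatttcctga
Kit, chr5:75574737-75574986: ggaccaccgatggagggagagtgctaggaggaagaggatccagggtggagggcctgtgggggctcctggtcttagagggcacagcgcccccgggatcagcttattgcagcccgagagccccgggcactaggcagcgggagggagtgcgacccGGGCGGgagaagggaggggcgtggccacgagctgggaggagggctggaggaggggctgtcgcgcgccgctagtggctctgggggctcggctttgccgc
Fgf7 held 1 CCAAT box, Fgf10 and Kit 1 GC box each, and Pdgfra neither. The TATA box (TATAAA) was also searched and found in none of the 4. The matches did not overlap. Of all 32851 promoters of this length, 32.7% held a GC box, 33.8% a CCAAT box and 12.4% a TATA box. The G and C share was 43.6% in Fgf7, 61.2% in Fgf10, 54.4% in Pdgfra and 70.8% in Kit. Promoters were read for 9 of the 10 genes, and Pdgfrb was left out.

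In the GENCODE M21 annotation of the mm10 build, Fgf7 lies on chromosome 2 (126034658 to 126091185, plus strand), Fgf10 on chromosome 13 (118669791 to 118792115, plus) and Hgf on chromosome 5 (16553495 to 16620152, plus). Igf1 lies on chromosome 10 (87858265 to 87937042, plus), Met on chromosome 6 (17463800 to 17573980, plus) and Igf1r on chromosome 7 (67952827 to 68233668, plus), where Fgfr2 also lies (130162451 to 133123350, minus). Pdgfra (75152292 to 75198215) and Kit (75574916 to 75656722) both lie on the plus strand of chromosome 5. Reads were counted at transcript 3′ ends, which do not separate the epithelial and mesenchymal splice forms of Fgfr2.

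**Figure D1:**
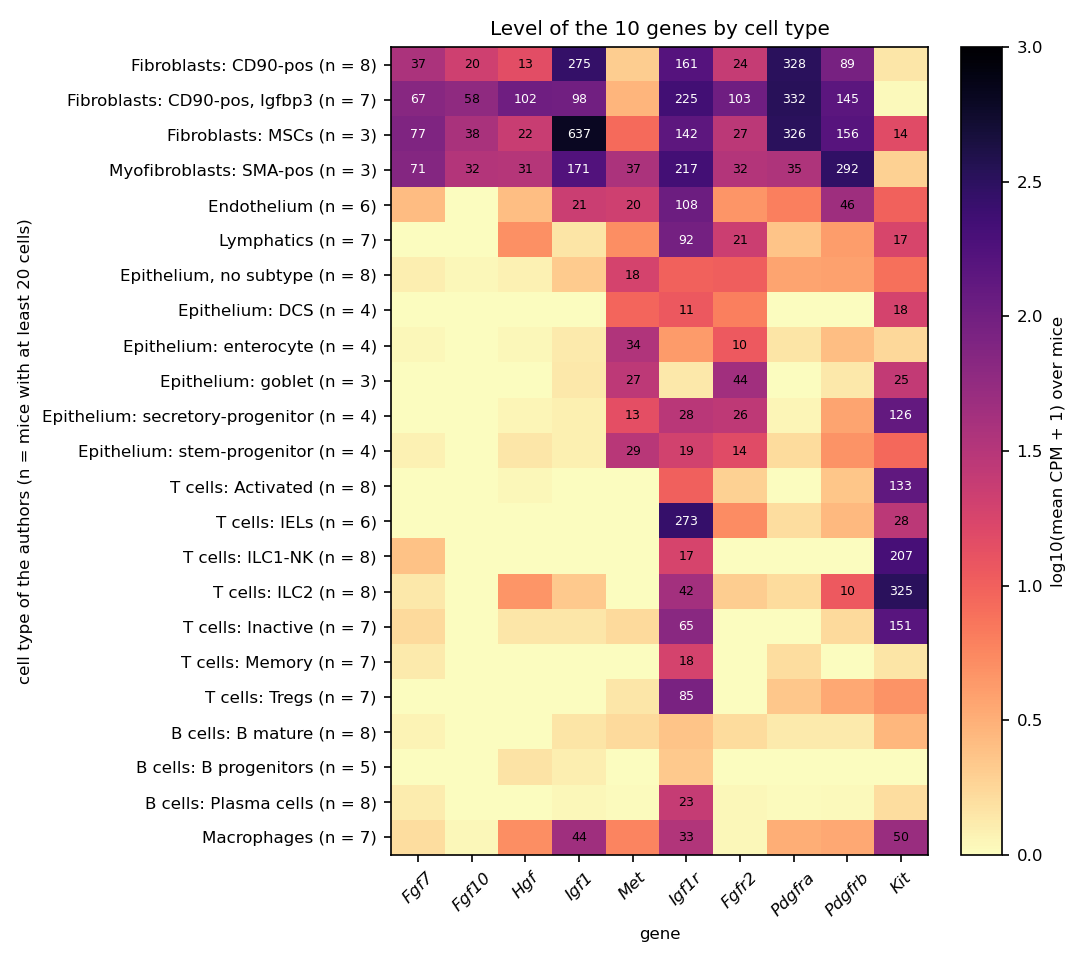
Mean level of the 10 genes (columns) in each cell type of the authors (rows; n is the number of mice with at least 20 cells), as log10(mean CPM + 1) over mice, with the mean CPM printed where it is at least 10. The 4 ligands are confined to the upper rows apart from Igf1 in macrophages and endothelium, Met stands out in epithelium and SMA-pos myofibroblasts, and Kit in lymphoid and secretory epithelial cells.

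The 4 ligands were found in fibroblasts and myofibroblasts, and 2 fibroblast subtypes divided them. The authors named these subtypes CD90-pos and CD90-pos, Igfbp3, after Igfbp3, which encodes an insulin-like growth factor binding protein. Fgf10, Hgf, Fgfr2 and Igf1r were higher in the Igfbp3 subtype, and Igf1 was higher in the other CD90-pos cells. Both subtypes carried all 5 fibroblast markers examined, among them Col1a1 at 2988 CPM in the Igfbp3 subtype and 4301 CPM in CD90-pos cells. Of the 4 subepithelial markers examined, 3 were at a higher level in the Igfbp3 subtype: Bmp4 at 1101 CPM there and 210.02 CPM in CD90-pos cells, Bmp7 at 67.3 and 1.25 CPM, and Foxl1 at 13.1 and 0.0567 CPM. F3 was at 62.3 CPM in the Igfbp3 subtype and 85.4 CPM in CD90-pos cells.

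In 1 library a name and the transcripts disagreed. Igfbp3 was at 481 to 1442 CPM in the Igfbp3 subtype of the 7 mice with at least 20 such cells. In CD90-pos cells it was at 3.28 to 83.8 CPM in 7 mice and at 852 CPM in WT-labelled mouse 8. Mouse 8 had 21 CD90-pos cells, with a median of 724 UMIs and 19945 UMIs in all. Its levels of the 10 genes in CD90-pos cells therefore rest on few UMIs. Differences of the 10 genes between the subtypes are given with and without this mouse.

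Fgf10 encodes a ligand needed for epithelial growth during gut development. Its level in the Igfbp3 subtype was 49.0, 49.1, 49.3 and 48.4 CPM in KO-labelled mice and 46.9, 55.6 and 107 CPM in WT-labelled mice 4, 5 and 8. In CD90-pos cells it was 1.29, 0.234, 0.928 and 2.70 CPM in KO-labelled mice and 0, 0.688, 2.54 and 150 CPM in WT-labelled mice. Mouse 8 alone was high in CD90-pos cells, from 3 UMIs, and in the 6 other mice with both subtypes the ranges did not overlap. Without mouse 8 the difference was 4.51 ± 0.58 on the log2(CPM + 1) scale (SD, n = 6 mice, higher in the Igfbp3 subtype in 6 of 6), and with it 3.80 ± 1.96 (n = 7, higher in 6 of 7). Fgf10 was not confined to this subtype. The cells named MSCs held 38.2 ± 28.7 CPM and SMA-pos myofibroblasts 32.0 ± 10.9 CPM (SD, n = 3 each).

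Hgf encodes the ligand of MET. It was at 167, 79.8, 106 and 92.1 CPM in the Igfbp3 subtype of KO-labelled mice and at 102, 106 and 61.6 CPM in that of WT-labelled mice 4, 5 and 8. In CD90-pos cells it was at 8.73, 2.57, 6.50 and 11.4 CPM in KO-labelled mice and at 5.88, 4.47, 15.7 and 50.1 CPM in WT-labelled mice. Every mouse with both subtypes had more Hgf in the Igfbp3 subtype, by 3.22 ± 1.46 on the log2(CPM + 1) scale (n = 7) and by 3.71 ± 0.75 without mouse 8 (n = 6). Macrophages held 4.14 ± 3.13 CPM (SD, n = 7 mice).

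Fgf7, a ligand of the same epithelial receptor form as Fgf10, was spread more evenly. It averaged 66.6 ± 20.7 CPM in the Igfbp3 subtype (n = 7) and 36.8 ± 16.4 CPM in CD90-pos cells (n = 8). SMA-pos myofibroblasts held 71.1 ± 22.1 CPM and the cells named MSCs 76.7 ± 27.8 CPM (n = 3 each). These levels overlapped between mice, except that all 8 CD90-pos values, at 56.8 CPM or less, lay below 5 of the 7 values of the Igfbp3 subtype. Within mice the difference, Igfbp3 subtype minus CD90-pos, was 1.40 ± 2.00 on the log2(CPM + 1) scale with mouse 8, whose 21 CD90-pos cells held no Fgf7 UMI (n = 7, higher in 6 of 7), and 0.66 ± 0.39 without it (n = 6, higher in 5 of 6). Of 1667 Igfbp3-subtype cells, 67 held UMIs of both Fgf7 and Fgf10, 287 of Fgf7 alone and 252 of Fgf10 alone, at a median of 4290 UMIs per cell.

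Igf1, the hormone-like growth factor that binds Igf1r, ran opposite to Fgf10 and Hgf. CD90-pos cells held 266, 262, 279 and 308 CPM in KO-labelled mice and 390, 297, 296 and 100.3 CPM in WT-labelled mice. The Igfbp3 subtype held 56.4, 119, 68.8 and 73.0 CPM in KO-labelled mice and 108, 112 and 148 CPM in WT-labelled mice 4, 5 and 8. The ranges overlapped through mouse 8 only, whose CD90-pos level rests on 21 cells with 19945 UMIs in all. The difference, Igfbp3 subtype minus CD90-pos, was -1.39 ± 0.95 on the log2(CPM + 1) scale with mouse 8 (lower in 6 of 7) and -1.71 ± 0.44 without it (lower in 6 of 6).

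The level of Igf1 in MSCs rested on 1 mouse. It was 1384 and 194 CPM in KO-labelled mice 2 and 7 and 333 CPM in WT-labelled mouse 5. SMA-pos myofibroblasts held 171 ± 47.5 CPM of Igf1, against 84.5 ± 23.6 CPM in the Igfbp3 subtype of the same mice (SD, n = 3). Macrophages were the immune type with Igf1, at 92.9, 12.9, 22.3 and 77.5 CPM in KO-labelled mice and 0, 38.1 and 65.9 CPM in WT-labelled mice 1, 4 and 5. Fibroblast markers were present among those macrophages at 105 CPM of Dcn in 4.25% of cells, and their part in the macrophage Igf1 value was not tested.

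Thinned to 1000 UMIs per cell, 24.5% of CD90-pos cells held an Igf1 UMI (50.9% unthinned). Mature B cells, which should lack it, gave 0.0366% thinned and 0.0935% unthinned, at median depths of 3886 UMIs in CD90-pos cells and 1893 UMIs in B cells. For Fgf10 in the Igfbp3 subtype the thinned share was 5.55% (19.1% unthinned). An Fgf10 UMI was seen in 0 of 12834 mature B cells, which allows a share of up to 0.0234% (3 counts, counting error only). The ligand signal in the fibroblast subtypes was thus above the share left in B cells.

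**Figure D2:**
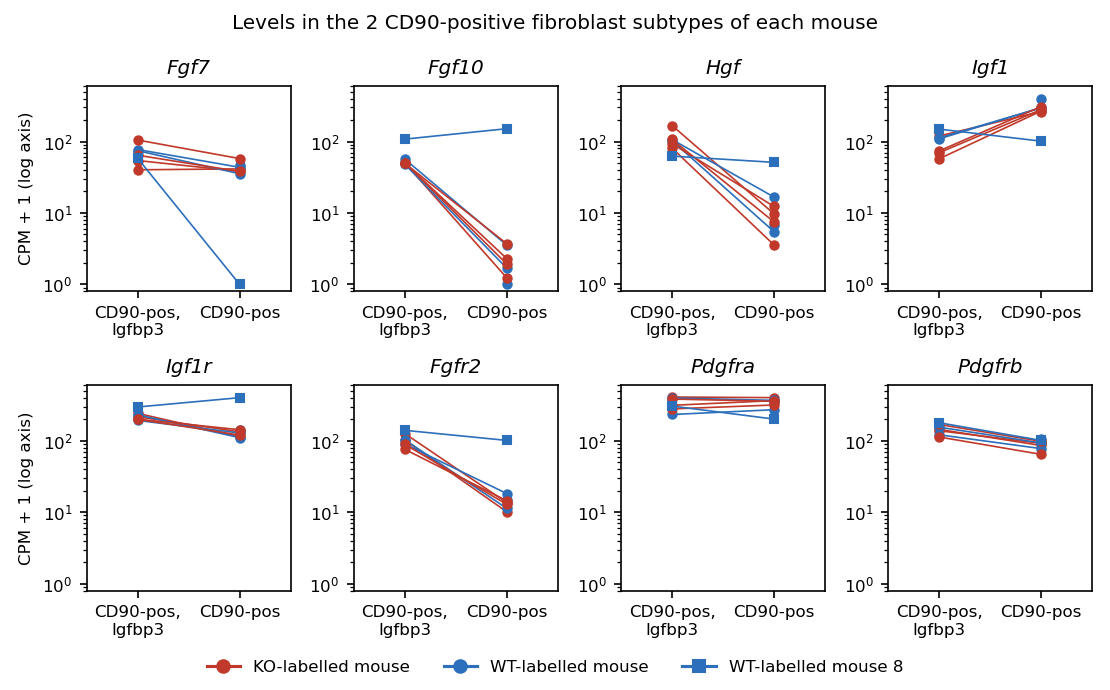
Level of 8 genes in the CD90-pos, Igfbp3 subtype and in CD90-pos fibroblasts (CPM + 1, log axis), with a line for each mouse that had at least 20 cells of both subtypes. Fgf10, Hgf and Fgfr2 fall steeply to the right, Igf1 climbs and Pdgfra stays level, and the squares of WT-labelled mouse 8 leave these courses in the right column.

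Fgfr2, the receptor of Fgf7 and Fgf10, was highest in the fibroblast subtype that also held Fgf10. The Igfbp3 subtype had 125, 100.3, 74.9 and 88.1 CPM in KO-labelled mice and 102, 88.7 and 139 CPM in WT-labelled mice 4, 5 and 8. CD90-pos cells had 12.6, 9.13, 13.5 and 11.9 CPM in KO-labelled mice and 14.0, 10.3, 17.3 and 100.3 CPM in WT-labelled mice. Leaving out mouse 8, no values overlapped and the difference was 2.87 ± 0.44 on the log2(CPM + 1) scale (SD, n = 6), and it was 2.52 ± 0.99 with mouse 8 (n = 7).

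In epithelium Fgfr2 was lower than in that subtype. Goblet cells held 43.8 ± 9.97 CPM (n = 3), the secretory-progenitor cells 26.2 ± 5.47 CPM, stem-progenitor cells 14.1 ± 4.14 CPM and enterocytes 10.1 ± 0.999 CPM (n = 4 each). The authors' epithelial subtype names are present in WT-labelled mice only. Lymphatic cells held 21.2 ± 16.0 CPM (n = 7) from 22 UMIs.

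Met, the receptor of Hgf, was at a low level in the epithelium and in SMA-pos myofibroblasts. The epithelium as a whole held 20.8, 22.3, 27.8 and 27.6 CPM in KO-labelled mice and 17.5, 23.4, 20.4 and 28.7 CPM in WT-labelled mice. Enterocytes held 33.6 ± 5.29 CPM and stem-progenitor cells 29.3 ± 4.09 CPM, a difference of 0.19 ± 0.21 on the log2(CPM + 1) scale that is within the spread over the 4 mice. Secretory-progenitor cells held 12.8 ± 4.18 CPM, and all 4 of their values lay below those of enterocytes. SMA-pos myofibroblasts held 61.3 and 19.2 CPM in KO-labelled mice 6 and 7 and 30.5 CPM in WT-labelled mouse 5. By mean CPM they ranked above enterocytes, and their range took in the enterocyte mean. Fibroblasts held 2.44 ± 2.49 CPM (n = 8). Met in the epithelium and Hgf in the Igfbp3 subtype thus lay in different cell types. SMA-pos myofibroblasts held both, with Hgf at 31.4 ± 39.2 CPM (SD, n = 3), the next level after the Igfbp3 subtype. At 1000 UMIs per cell 2.68% of enterocytes held a Met UMI (9.06% unthinned), against 0.0823% of mature B cells (0.195% unthinned).

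Igf1r, the IGF1 receptor, was the most widely spread of the 10. Intraepithelial lymphocytes (IELs) held 340.3, 262 and 191 CPM in KO-labelled mice 2, 6 and 7 and 264, 269 and 309.6 CPM in WT-labelled mice 4, 5 and 8. The Igfbp3 subtype held 216, 242, 199.7 and 199 CPM in KO-labelled mice and 192, 230.02 and 297 CPM in WT-labelled mice 4, 5 and 8. The 2 ranges overlapped, with IELs higher in 5 of the 6 mice that had both and a log2 difference of 0.29 ± 0.27. SMA-pos myofibroblasts followed at 217 ± 23.1 CPM (n = 3), CD90-pos fibroblasts at 161 ± 97.8 CPM (124 ± 12.4 CPM in the 6 mice with both subtypes other than mouse 8, where the Igfbp3 subtype was higher by 0.78 ± 0.25 on the log2(CPM + 1) scale, against 0.60 ± 0.51 in all 7), endothelium at 108 ± 37.0 CPM and lymphatic cells at 92.1 ± 35.6 CPM. Regulatory T cells held 85.3 ± 48.8 CPM, and the epithelium 11.6 ± 3.77 CPM. ILC3 cells, too few in any mouse for a level, held an Igf1r UMI in 39.7% of the 68 cells thinned to 1000 UMIs. The IEL cluster carried Cd3d at 888 CPM in 81.5% of cells. In IELs 23.8% of cells held an Igf1r UMI at 1000 UMIs per cell (38.1% unthinned), against 0.119% of mature B cells (0.265% unthinned).

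Pdgfra, the receptor used to tell fibroblasts from mural cells, hardly differed between the 2 CD90-pos subtypes. It was at 409.6, 313, 279 and 383 CPM in the Igfbp3 subtype of KO-labelled mice and at 233, 397 and 306 CPM in that of WT-labelled mice 4, 5 and 8. In CD90-pos cells it was at 401, 365, 316 and 356 CPM in KO-labelled mice and at 343, 272, 368 and 201 CPM in WT-labelled mice. The difference was 0.03 ± 0.29 on the log2(CPM + 1) scale (n = 7) and -0.06 ± 0.16 without mouse 8 (n = 6), so its sign rested on that mouse. MSCs were at the same level, 326 ± 77.9 CPM (n = 3).

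A small fibroblast cluster, CD90-neg, Sox6-Bmp, had far more Pdgfra. Its 47 cells all held a Pdgfra UMI, and the 45 cells deep enough to be thinned to 1000 UMIs still gave 73.3%, against 28.8% in CD90-pos cells. Only WT-labelled mouse 5 had 20 or more of them, with 2052 CPM in 26 cells. The smaller groups of 2 to 7 cells gave 1581, 2399, 1797 and 2071 CPM in KO-labelled mice and 1012 and 503 CPM in WT-labelled mice 4 and 8. The same cluster carried the subepithelial fibroblast markers Bmp4 at 1760 CPM, F3 at 912 CPM, Bmp7 at 471 CPM and Foxl1 at 100.1 CPM. It also held Acta2, a smooth muscle actin, at 2066 CPM.

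Pdgfrb, the receptor of pericytes and smooth muscle, was highest in SMA-pos myofibroblasts. These held 283 and 345 CPM in KO-labelled mice 6 and 7 and 247 CPM in WT-labelled mouse 5, above every value in the CD90-pos subtypes. The cluster combined Acta2 at 10918 CPM with the pericyte marker Rgs5 at 1650 CPM in 52.6% of its 173 cells. MSCs held 156 ± 38.0 CPM (n = 3). The Igfbp3 subtype held 137, 143, 112 and 168 CPM in KO-labelled mice and 120.4, 154 and 178 CPM in WT-labelled mice 4, 5 and 8, and CD90-pos cells 91.2, 85.0, 63.6 and 97.4 CPM in KO-labelled mice and 105, 76.7, 92.4 and 100.3 CPM in WT-labelled mice. Each mouse with both subtypes had more Pdgfrb in the Igfbp3 subtype, and the ranges did not overlap. The difference was 0.73 ± 0.09 on the log2(CPM + 1) scale (n = 7, higher in 7 of 7) and 0.72 ± 0.09 without mouse 8 (n = 6, higher in 6 of 6).

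Pdgfrb in the endothelial class sat in a few cells. Of 265 endothelial cells 10 held a Pdgfrb UMI, and 9 of these also held an Rgs5 UMI. Cells with an Rgs5 UMI carried 56 of the 57 Pdgfrb UMIs of the class. Among CD90-pos fibroblasts 882 of 4424 cells held both Pdgfra and Pdgfrb, 1936 Pdgfra alone and 297 Pdgfrb alone. Among SMA-pos myofibroblasts 6 of 173 held both, 3 Pdgfra alone and 72 Pdgfrb alone.

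Kit was set apart from the other 9 genes. Among types with at least 20 cells in a mouse, its highest levels were in ILC2, tuft (2 mice only) and ILC1-NK cells. The T cell clusters named Inactive and Activated and secretory-progenitor cells followed. ILC2 cells held 397, 295, 203 and 251 CPM in KO-labelled mice and 247, 244, 321 and 644 CPM in WT-labelled mice. ILC1-NK cells held 275, 221, 119 and 154 CPM in KO-labelled mice and 152, 219, 167 and 353 CPM in WT-labelled mice. The ranges overlapped, while each of the 8 mice had more Kit in ILC2 than in ILC1-NK cells (log2 difference 0.63 ± 0.26). The ILC2 cluster carried the type 2 genes Gata3 at 862 CPM and Il1rl1 at 421 CPM, with Cd3d at 31.1 CPM.

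Mast cells also carry KIT, and mast cell transcripts were present in the ILC2 cluster. Cpa3 was at 86.0 CPM in 1.99% of its cells, Mcpt1 at 98.6 CPM in 0.596% and Mcpt2 at 102 CPM in 0.795%. Leaving out the 10 cells with at least 2 UMIs of the 7 mast markers, a step chosen after seeing the data, took Kit in ILC2 cells to 397, 253, 202 and 222 CPM in KO-labelled mice and to 229, 240.1, 265 and 386 CPM in WT-labelled mice. The mean over all 8 mice was 274 ± 74.9 CPM without these cells and 325 ± 142 CPM with them, and mouse 8 moved most. Thinned to 1000 UMIs, 23.9% of ILC2 cells held a Kit UMI (48.9% unthinned), against 0.0366% of mature B cells (0.101% unthinned).

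The Inactive and Activated T cell clusters held 151 ± 78.4 CPM (n = 7) and 133 ± 31.7 CPM (n = 8) of Kit, which did not differ beyond the spread between mice. Memory T cells and B cells were near 0 on the same scale. ILC3 cells numbered 74, too few in any mouse for a level, and held 51 Kit UMIs in all, at a median of 2699.5 UMIs per cell. They have no place in the order of Kit levels above, which does not mean that they held less. Macrophages held 27.9, 94.7, 52.6 and 37.9 CPM in KO-labelled mice and 69.8, 26.2 and 39.8 CPM in WT-labelled mice 1, 4 and 5. Their 659 cells held 1 UMI of the 7 mast markers.

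Within the epithelium the WT-only subtype names placed Kit in tuft cells (195 and 421 CPM in WT-labelled mice 5 and 8) and in secretory-progenitor cells (126 ± 37.5 CPM, n = 4). Goblet cells held 24.6 CPM and the cells named DCS, for deep crypt secretory, 17.6 ± 19.7 CPM. The secretory-progenitor cells carried Reg4, a marker of deep crypt secretory cells, at 3567 CPM in 81.4% of cells, close to the 3762 CPM and 69.8% of the DCS cells. Median depth was 8024 UMIs in secretory-progenitor cells and 1167 UMIs in DCS cells.

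Because KO-labelled mice have no epithelial subtype names, epithelial cells with at least 3 Reg4 UMIs and under 50% mitochondrial UMIs were set against the other such epithelial cells of the same mouse. Kit in the Reg4-gated cells was at 69.2, 112, 43.9 and 71.7 CPM in KO-labelled mice and at 96.9, 40.8, 82.1 and 93.4 CPM in WT-labelled mice. In the other epithelial cells it was at 5.44, 15.2, 4.93 and 2.59 CPM in KO-labelled mice and at 8.80, 5.74, 9.65 and 12.8 CPM in WT-labelled mice. The lowest gated value was above the highest of the others. The gate held 22 to 276 cells per mouse. Their median UMIs were 12389, 1884, 12271 and 8653 in KO-labelled mice and 2464, 5613, 15239 and 3909 in WT-labelled mice. The other cells had 2246, 1636, 2646.5 and 2313 in KO-labelled mice and 3068, 1671, 4878 and 4934 in WT-labelled mice. A gate on a UMI count can miss shallow cells, such as many of those named DCS. Kit was higher in the gated cells in 8 of 8 mice, by 3.15 ± 0.55 on the log2(CPM + 1) scale (two-sided exact sign-flip permutation test, p = 0.00781, the smallest that 8 mice allow).

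Tuft cells also carried Kit. Without the 230 cells with a UMI of the tuft markers Dclk1 or Trpm5, a step chosen after seeing the data, the difference was 3.77 ± 0.60 (exact permutation p = 0.00781). Between genotypes the gated level was 74.2 ± 28.1 CPM in KO-labelled mice and 78.3 ± 25.8 CPM in WT-labelled mice (SD, n = 4 each). That difference, -0.08 on the log2(CPM + 1) scale, was smaller than the spread within either group (two-sided exact permutation test, p = 0.857).

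**Figure D3:**
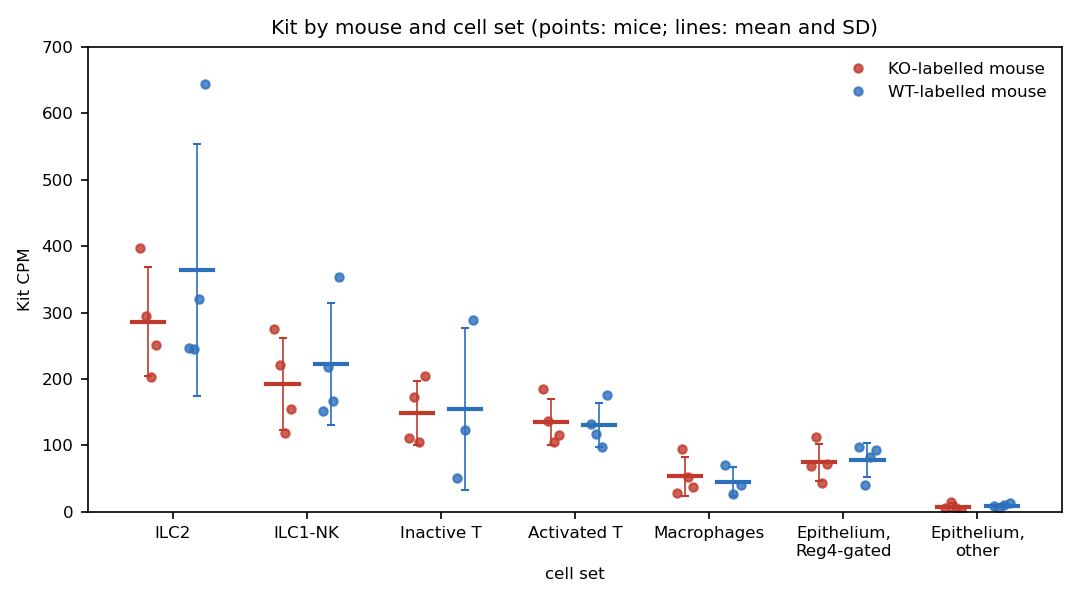
Kit level (CPM, linear axis from 0) by mouse in 7 cell sets, KO-labelled mice left and WT-labelled mice right in each set; thick lines are means and thin bars SD. Levels step down from ILC2 to macrophages, and Reg4-gated epithelial cells (40.8 to 112 CPM) lie above the other epithelial cells (2.59 to 15.2 CPM) in both groups.

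Neighbouring types in the order of each gene's level were compared within mice for 28 pairs. The test was a two-sided exact sign-flip permutation test on log2(CPM + 1), adjusted by Benjamini-Hochberg over the pairs. The order, and so the choice of pairs, came from these same levels, so the p-values are a description. None of the 28 passed an adjusted 0.05, where the smallest adjusted value was 0.219, and 3 had an unadjusted p under 0.05: Kit in ILC2 over ILC1-NK cells (0.00781), and Pdgfrb (0.0156) and Fgf7 (0.0312) in the Igfbp3 subtype over CD90-pos cells. Without mouse 8 the exact permutation p was 0.0625 for Fgf7 and 0.0312, the smallest that 6 mice allow, for Pdgfrb. Of the pairs, 21 had fewer than 6 mice with both types and could not reach 0.05 at all. The Igfbp3 subtype against CD90-pos cells was not among the pairs for Fgf10, Hgf, Fgfr2, Igf1 or Igf1r, because other types ranked between them. Those differences were not tested.

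Across 22 cell types the levels of the 4 ligands, Pdgfra and Pdgfrb followed one another. Fgf7 and Fgf10 had a Pearson correlation of 0.98 on log2(CPM + 1) of the type means, and Pdgfra had 0.95 with each of them. These correlations are over types that share libraries and clusters, and most types sit at or near 0. The type means include mouse 8, and the correlations were not read without it. Without mouse 8 the Igfbp3 subtype exceeded CD90-pos cells by 4.51 for Fgf10 and by 0.66 for Fgf7 on the log2(CPM + 1) scale. Among 13382 genes at 10 CPM or more in some type, Gli2, a transcription factor of hedgehog signalling, was among the 3 most alike to Fgf7 (0.98) and to Fgf10 (0.99). The gene most alike to Igf1 was B3galnt1 (0.98), to Hgf Edil3 (0.96), to Pdgfra Efemp1 (0.99) and to Pdgfrb Sobp (0.96). For Met, Igf1r, Fgfr2 and Kit the highest correlations were lower: Gdf15 for Met (0.94), Cd99l2 for Igf1r (0.91), Sh3d19 for Fgfr2 (0.91) and Tha1 for Kit (0.77).

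Ligands of these receptors and enzymes that act on HGF were read in the same types. Pdgfa, which encodes a ligand of the receptor made from Pdgfra, was at 313 ± 73.4 CPM in enterocytes (n = 4), and Pdgfb at 207 ± 104 CPM in endothelium (n = 6). Pdgfc was at 134 ± 26.3 CPM in SMA-pos myofibroblasts (n = 3). Kitl, which encodes the KIT ligand, was at 438 ± 83.7 CPM in endothelium (n = 6), 133 ± 61.0 CPM in the Igfbp3 subtype (n = 7) and 84.4 ± 8.75 CPM in stem-progenitor cells (n = 4). Hgfac, an activator of pro-HGF, was at 355 ± 94.8 CPM in secretory-progenitor cells, and St14 and Spint1, a protease and its inhibitor that act on the same step, were at 333 ± 49.1 and 338 ± 31.7 CPM in enterocytes (n = 4 each).

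Other FGF receptors and ligands were read with mouse 8 included. Fgfr1, the main mesenchymal FGF receptor, was at 366 ± 41.2 CPM in CD90-pos cells (n = 8) and 267 ± 34.4 CPM in the Igfbp3 subtype (n = 7). Fgf2, Fgf9 and Fgf18 were each highest in CD90-pos cells, at 71.1 ± 18.2, 37.0 ± 23.2 and 33.6 ± 14.0 CPM (n = 8). Igfbp5, an IGF binding protein, was at 4098 ± 914 CPM in lymphatic cells (n = 7).

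The design compares epithelial Spry2 deletion with its littermate controls, and no difference of the 10 genes between the genotypes passed the test. For each cell set the UMIs of a mouse were added up, and all genes of the set were fitted together in edgeR. Mice with fewer than 20 cells were left out of a fit: WT-labelled mouse 1 in the Igfbp3 subtype and in lymphatic cells, WT-labelled mouse 8 in macrophages, and mice 2 (KO) and 1 (WT) in endothelium. In the 9 cell sets with at least 3 mice per group, 35 tests of the 10 genes were made in 8 sets and each gene was tested at least once. The count of members with an adjusted p under 0.05 was 0 of 35 with edgeR and 0 of 35 with DESeq2, and 1 of 35 had an unadjusted p under 0.05 with either. The smallest adjusted value over all alternative settings was 0.378. In none of the 35 were the KO and WT values without overlap.

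Those counts read against the whole table as follows. In fibroblasts 0% of 11023 genes were called and 1.81% had values that did not overlap, in the Igfbp3 subtype 0% of 6537 and 4.02%, and in CD90-pos cells 0% of 9843 and 1.91%. In epithelium the shares were 0% of 11723 and 0.324%, in T cells 0% of 8706 and 1.26%, and in B cells 0% of 10444 and 0.728%. Macrophages had 0.111% of 5407 genes called and 5.55% without overlap, and lymphatic cells 0.146% of 3425 and 5.52%. In endothelium, where no member was abundant enough to be tested, the shares were 0% of 1533 and 9.59%. In the 7 sets with no call, 72 to 230 genes had an unadjusted p under 0.05 with edgeR, and DESeq2 called none either. The 5 genes called in lymphatic cells were Mptx1, Phgr1, Clca1 and Tff3, which were lower and are known from epithelium, and Nts, which was higher.

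In fibroblasts 8 members were tested, 2 with a higher and 6 with a lower estimate, with a median log2 fold change (KO over WT) of -0.17 beside 0.01 over all genes. Fgf10 was at 7.37, 5.25, 21.5 and 24.0 CPM in KO-labelled mice and at 4.14, 7.50, 32.0 and 106 CPM in WT-labelled mice. Its log2 fold change was -0.93 ± 0.83 (SE; 95% interval -2.77 to 0.91), -0.15 without mouse 8, and -0.79 with mice 1 to 4 against 5 to 8 as a second term. Fgfr2 was at 25.6, 18.5, 39.4 and 41.1 CPM in KO-labelled mice and at 17.9, 23.1, 54.0 and 136 CPM in WT-labelled mice. Its log2 fold change was -0.62 ± 0.53 (95% interval -1.80 to 0.56), -0.08 without mouse 8, and -0.49 with that second term. The groups overlapped for both genes, and mouse 8 was the highest for both.

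The share of the Igfbp3 subtype moved with these values. It made up 10.3%, 9.34%, 41.5% and 31.5% of fibroblasts in KO-labelled mice and 3.78%, 13.2%, 49.8% and 87.2% in WT-labelled mice. Mice 5, 6, 7 and 8, which had the larger shares, had more Fgf10 and Fgfr2 and less Igf1 in the fibroblast class than any of mice 1, 2, 3 and 4. Within the Igfbp3 subtype the log2 fold change of Fgf10 was -0.44 ± 0.24 and -0.12 without mouse 8, and that of Fgfr2 was -0.19 ± 0.21 and -0.02 without mouse 8. In the fibroblast class as a whole, fewer cells of the subtype and less transcript per cell cannot be told apart.

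**Figure D4:**
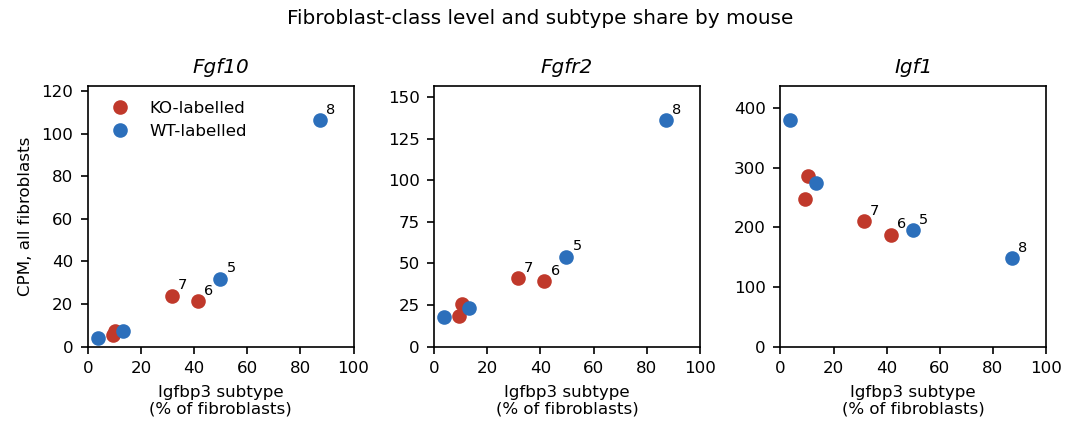
Level of Fgf10, Fgfr2 and Igf1 in all fibroblasts of each mouse (CPM, vertical axis from 0) against the share of the CD90-pos, Igfbp3 subtype among its fibroblasts (%), with mice 5 to 8 numbered. Fgf10 and Fgfr2 are high and Igf1 is low in the mice with a large share, in both groups of mice.

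Of the remaining fibroblast members, Fgf7, Pdgfra, Igf1, Igf1r and Pdgfrb had smaller errors (SE) than Fgfr2, and Hgf had a larger one. Fgf7 was at 51.3 ± 17.4 CPM in KO-labelled mice, against 49.6 ± 8.33 CPM in WT-labelled mice (SD, n = 4 each), with a log2 fold change of 0.08 ± 0.23. Pdgfra was at 362 ± 43.9 CPM in KO-labelled mice, against 333 ± 64.1 CPM in WT-labelled mice, with 0.15 ± 0.16. Igf1 was at 233 ± 43.3 CPM in KO-labelled mice, against 249.8 ± 101 CPM in WT-labelled mice, with -0.08 ± 0.26 and a 95% interval of -0.67 to 0.50. For Hgf, Igf1r and Pdgfrb the estimates were -0.13 ± 0.57, -0.28 ± 0.22 and -0.22 ± 0.21.

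The lowest p among the 35 was that of Igf1 in the Igfbp3 subtype. Its 4 KO-labelled values averaged 79.2 ± 27.3 CPM and its 3 WT-labelled values 123 ± 22.2 CPM, with KO-labelled mouse 3, at 119 CPM, inside the WT range. The log2 fold change was -0.63 ± 0.22 (95% interval -1.11 to -0.16), with an adjusted p of 0.999 by edgeR. It did not pass.

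In epithelium, where the deletion is made, 5 members were tested, 4 with a higher estimate and 1 with a lower, and their median was 0.14 beside 0.00 over all genes. Met had a log2 fold change of 0.18 ± 0.17 (95% interval -0.20 to 0.56), Igf1r 0.20 ± 0.20 (-0.24 to 0.64) and Fgfr2 0.14 ± 0.21 (-0.32 to 0.60). Kit was at 10.8 ± 5.26 CPM in KO-labelled mice, against 16.1 ± 8.07 CPM in WT-labelled mice, with -0.46 ± 0.39 (-1.32 to 0.40). The KO and WT values overlapped for all 5.

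Among immune and vessel sets the estimates were of the same order. Kit had -0.17 ± 0.31 in T cells and 0.22 ± 0.40 in macrophages. Igf1r had -0.69 ± 0.43 in macrophages, with 26.5 ± 13.4 CPM in KO-labelled mice (n = 4) and 41.4 ± 16.6 CPM in WT-labelled mice (n = 3). Its estimates in T cells, B cells and lymphatic cells were -0.21 ± 0.29, -0.24 ± 0.50 and -0.19 ± 0.41.

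**Figure D5:**
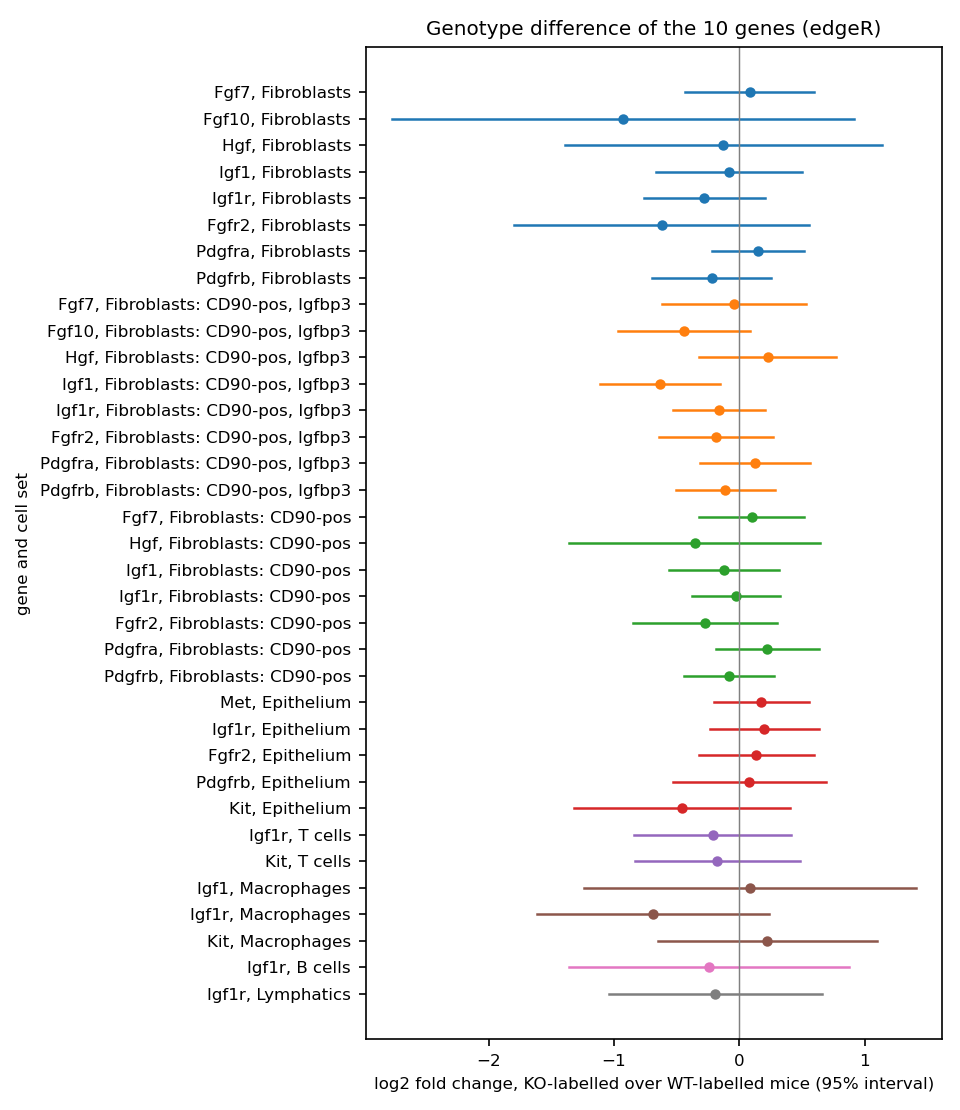
Log2 fold change, KO-labelled over WT-labelled mice, of each gene in each cell set where it was tested (points, edgeR; bars, 95% interval; colours, cell sets). The bars cross 0 for every gene and set but Igf1 in the CD90-pos, Igfbp3 subtype.

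Other genes of these pathways were read from the same fits. They are 41 genes in 6 lists (PDGF ligands, other FGF ligands, other FGF receptors, KIT and IGF ligands with IGF binding proteins, HGF and MSP activation, and adaptors), with 174 tests over the 9 sets. None passed an adjusted p of 0.05 with edgeR, and 4 had an unadjusted p under 0.05. The protease inhibitor Spint2 accounted for 3 of these, with a log2 fold change of -0.77 ± 0.34 in fibroblasts, -1.02 ± 0.41 in CD90-pos cells and -0.73 ± 0.26 in macrophages. Of the 6262 fibroblasts, 4424 are the CD90-pos cells, so those values share most of their cells. Spint2 was highest in enterocytes, at 1765 ± 379 CPM (n = 4). The goblet cell transcript Muc2 was seen in 6.67% of CD90-pos cells and 9.71% of macrophages. Whether epithelial transcripts had a part in the Spint2 values was not tested. The other was Fgf2 in the Igfbp3 subtype, at 0.79 ± 0.23. Over all genes an unadjusted p under 0.05 was seen for 197 of 11023 in fibroblasts and 209 of 9843 in CD90-pos cells. It was seen for 147 of 5407 in macrophages and 230 of 6537 in the Igfbp3 subtype.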

How the data were processed

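Colonic single-cell libraries of 8 mice, which the labels give as separate mice and 1 batch, were analysed. The deposited table holds raw UMI counts per gene and cell. Cell Ranger 3.0.2 and the mm10 build are named in the submitters' processing notes. How clusters were made is not given in the sources used here. A size factor per cell, a ratio of totals, was deposited by the authors. It was used only to check the order of cells: 16 of 53080 size factors matched in file order and all 53080 after sorting (tolerance 1e-06). Cell classes and subtypes are the authors' deposited labels, and 1316 cells named doublets were left out. No sample column was unused (0). Libraries shared 356 barcodes, and cells with these were kept. Total UMIs of 17037906 to 37300028 per mouse limit low genes in small cell types.

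UMIs were summed per mouse and type, and given as CPM where a mouse had at least 20 cells. Genotypes were compared with edgeR 4.0.16 (quasi-likelihood F test, TMM scaling, filterByExpr) in R 4.3.3 where at least 3 mice per group remained, with Benjamini-Hochberg adjustment over all genes of a set and a threshold of 0.05. DESeq2 1.42.0 was an alternative, as were RLE scaling, no low-count filter, at least 50 cells per mouse, a second term for mice 1 to 4 against mice 5 to 8 (chosen after seeing the data), cells under 50% mitochondrial UMIs, each mouse left out, a pseudocount of 10 in place of 1 CPM, a Reg4 gate of 10 in place of 3 UMIs, and thinning to 500 UMIs or none in place of 1000. Single values were compared with exact permutation tests over mice (Python 3.11.15, scipy 1.17.1). Shares of cells carry counting error and depend on depth, so they are given thinned and unthinned.

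Named genes are the 10 members, the genes of 6 pathway lists, the 3 genes most alike to each member across types, genes called in a set with 5 or fewer calls, and Spry2. The members and lists were chosen with earlier results of these data known. Positions are from GENCODE M21 and promoter sequences from RefSeq.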

Additional observations from a re-analysis of the deposited data

Results flagged for a closer look

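In 106 groups of 4 mice, 8 had 1 mouse far from the other 3, where the gap to the nearest value, divided by the whole range, was above 0.829. The groups are the 10 genes by genotype in each cell type where a gene was tested or averaged at least 10 CPM, and the values by mouse of Kit in the Reg4-gated, other epithelial and mast-free ILC2 cells, of Spry2 and of Igfbp3. For independent values with a normal spread, chance gives about 1 in 20 such groups. The groups here share mice and cells, and some levels rest on few UMIs, so the 8 are not read against that share.

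In CD90-pos fibroblasts WT-labelled mouse 8 stood apart for 4 genes. Fgf10 was at 150 CPM in mouse 8, against 0, 0.688 and 2.54 CPM in the other WT-labelled mice, and Fgfr2 was at 100.3 CPM, against 10.3, 14.0 and 17.3 CPM. Igf1r was at 401 CPM in mouse 8, against 110, 128 and 141 CPM, and Igfbp3 was at 852 CPM, against 7.23, 8.08 and 48.2 CPM. All 4 values come from its 21 CD90-pos cells, which held 19945 UMIs in all. They rest on 17 UMIs for Igfbp3 and on fewer for the other genes. In the same cell type KO-labelled mouse 7 had Fgf7 at 56.8 CPM, against 37.1, 37.2 and 40.4 CPM in the other KO-labelled mice, and Igfbp3 at 83.8 CPM, against 3.28, 5.82 and 10.7 CPM.

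Pdgfrb in ILC2 cells was at 44.1 CPM in KO-labelled mouse 2, against 0, 0 and 4.52 CPM in the other KO-labelled mice. The value of mouse 2 rests on few UMIs, from 20 ILC2 cells with 68068 UMIs in all. Spry2 in the epithelium was at 49.3 CPM in KO-labelled mouse 7, against 10.4, 13.3 and 15.7 CPM.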

How the results depend on the processing

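No member passed the threshold under any alternative. Of the counts and differences that answer a comparison, 119 alternatives kept their value or call and 19 counts of called genes moved. With no low-count filter, genes called numbered 45 in endothelium, 28 in CD90-pos cells, 50 in the Igfbp3 subtype, 22 in lymphatic cells, 37 in macrophages and 14 in T cells. Lymphatic cells had 2 with DESeq2 and 21 with at least 50 cells per mouse. With each mouse left out, calls ranged from 0 to 7 in endothelium (7 without KO mouse 3), 0 to 1 in CD90-pos cells (1 without WT mouse 5), 0 to 5 in the Igfbp3 subtype (5 without KO mouse 3), 0 to 8 in lymphatic cells (0 without KO mouse 6, 8 without WT mouse 8) and 3 to 7 in macrophages (3 without KO mouse 2). The cause was not tested. A second term for mice 1 to 4 against mice 5 to 8, chosen after seeing the data, changed no sign among the 35 member estimates and no count of called genes by more than 1.5 times.

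Signs turned for Igf1r in CD90-pos cells, 0.0013 with no filter and 0.015 with at least 50 cells, and for Pdgfra between the CD90-pos subtypes, -0.063 with at least 50 cells. With each mouse left out, log2 fold changes ranged as follows: in fibroblasts Fgf7 -0.18 to 0.22, Hgf -0.44 to 0.51 and Igf1 -0.26 to 0.16; in CD90-pos cells Fgf7 -0.056 to 0.17, Hgf -0.76 to 0.38, Igf1r -0.13 to 0.028, Igf1 -0.22 to 0.012 and Pdgfrb -0.18 to 0.015; in the Igfbp3 subtype Fgf7 -0.38 to 0.10 and Pdgfra -0.020 to 0.37. They ranged in epithelium for Fgfr2 from -0.051 to 0.23 and Pdgfrb from -0.16 to 0.16, in T cells for Kit from -0.40 to 0.19 and Igf1r from -0.43 to 0.020, and in macrophages for Kit from -0.054 to 0.43 and Igf1 from -0.27 to 0.90. Igf1r ranged from -0.55 to 0.16 in B cells and from -0.44 to 0.28 in lymphatic cells. Pdgfra between the CD90-pos subtypes ranged from -0.063 to 0.075, Kit of Inactive minus Activated cells from -0.14 to 0.35, and Kit in Reg4-gated cells, KO minus WT, from -0.36 to 0.14.

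No paired analysis was possible because the groups share no replicate numbers. Epithelial subtypes are named in WT-labelled mice only, and MSCs, SMA-pos myofibroblasts and Sox6-Bmp cells have too few mice for a genotype test. Shares of cells fell with thinning: Igf1 in CD90-pos cells was in 13.1% at 500 UMIs.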
